A study of Homo sapiens with 6 samples.

Results

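The mitotic kinases AURKA, AURKB, PLK1, BUB1, BUB1B, TTK, NEK2 and CDK1 and the B-type cyclins CCNB1 and CCNB2 were followed in A549 cells, an established human lung adenocarcinoma line, after siRNA against the long noncoding RNA PLANE. These 10 genes were taken by name from a total of 34957 genes, and all 10 were found in both deposited tables. Short-read RNA-seq was carried out 48 h after transfection. A549_NC cells had received a negative control siRNA, siRNA1 cells (A549_siPLANE_1 and A549_siPLANE_2) an siRNA against PLANE, whose number the labels do not give, and siRNA2 cells (A549_siPLANE_3 and A549_siPLANE_4) another siRNA against PLANE, with 2 libraries in each of the 3 groups. All cells had been transfected with the same lipid reagent. Nothing in the labels says that the 2 libraries of a group came from separate cultures, so p-values measure only the spread between these libraries. PLANE itself was not analysed here, and the values below hold no check of its knockdown.

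Entry into mitosis is driven by CDK1, a cyclin-dependent kinase that becomes active when it binds cyclin B1 or cyclin B2, the products of CCNB1 and CCNB2. PLK1 and the Aurora kinases act beside it: PLK1 and AURKA serve centrosome maturation and the bipolar spindle, and AURKB corrects faulty attachments at the centromere and serves cytokinesis. BUB1, BUB1B (which encodes BubR1) and TTK (Mps1) belong to the spindle assembly checkpoint, which holds back anaphase until every chromosome is attached, and NEK2 serves the separation of centrosomes. The mRNAs of these genes are made mainly in G2 and M phase in dividing cells, and a shared promoter architecture of CCAAT boxes and a cell cycle genes homology region (CHR) is known for many of them.

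Promoter sequences are shown because of the promoter architecture known for many of these genes. Whether these elements bear on any difference after either siRNA was not tested. RefSeq windows of GRCh38.p14 around the annotated start sites, most of their length upstream, were held for 8 of the 10 genes. AURKA and TTK were not among them. The windows were searched on both strands for the CHR letters TTTGAA or TTCGAA and for CCAAT, and 16.4% of all 35116 windows held a CHR match and 34.6% a CCAAT match. By gene, 19.5% of 27305 genes had a window with a CHR match, 39.7% a window with CCAAT, and 12.9% a window with at least 2 CCAAT. Of the 8 genes, 5 (CDK1, CCNB2, PLK1, BUB1 and BUB1B) had a window with a CHR match, 7 (all but BUB1B) had CCAAT, and 5 had a window with at least 2 CCAAT. A match of letters is a description and not a bound site. The windows of PLK1 (chr16:23678639-23678938, plus strand), CCNB2 (chr15:59104896-59105195, plus strand) and CCNB1 (chr5:69166900-69167199, plus strand) are printed 5′ to 3′, with CHR and CCAAT matches in capitals.
PLK1: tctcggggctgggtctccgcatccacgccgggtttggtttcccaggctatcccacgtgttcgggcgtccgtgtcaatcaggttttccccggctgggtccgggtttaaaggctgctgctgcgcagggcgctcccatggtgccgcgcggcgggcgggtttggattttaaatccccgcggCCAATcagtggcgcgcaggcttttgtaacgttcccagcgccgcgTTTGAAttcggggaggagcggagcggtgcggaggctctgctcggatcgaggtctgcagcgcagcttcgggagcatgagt
CCNB2: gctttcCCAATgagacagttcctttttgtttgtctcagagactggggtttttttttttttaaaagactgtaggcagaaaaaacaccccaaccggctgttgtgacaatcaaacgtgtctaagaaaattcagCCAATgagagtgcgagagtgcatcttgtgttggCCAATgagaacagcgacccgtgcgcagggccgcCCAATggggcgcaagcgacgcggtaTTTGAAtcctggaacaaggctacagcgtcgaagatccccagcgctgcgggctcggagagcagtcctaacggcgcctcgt
CCNB1: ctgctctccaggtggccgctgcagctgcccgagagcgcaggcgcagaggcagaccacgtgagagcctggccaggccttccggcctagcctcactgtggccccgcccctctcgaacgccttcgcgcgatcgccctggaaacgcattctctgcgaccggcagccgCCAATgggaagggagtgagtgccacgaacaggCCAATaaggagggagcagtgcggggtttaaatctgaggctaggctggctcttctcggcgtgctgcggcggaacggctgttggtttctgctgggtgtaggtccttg
Positions are counted from the annotated start site, with upstream bases negative. PLK1 and CCNB2 both held TTTGAA starting at -29. CCNB2 held CCAAT at -244, -120, -87 and -54. CCNB1 held CCAAT at -87 and -55 and no match to TTTGAA or TTCGAA, the only CHR letters searched for. The downstream CCAAT pair of CCNB2 thus lay nearly where that of CCNB1 did.

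Depth and content differed between the groups. Expected counts summed to 13643800 and 14267231 in the A549_NC libraries, 11093137 and 10572151 in the siRNA1 libraries, and 20778431 and 18281765 in the siRNA2 libraries. The siRNA2 libraries stood apart. Across the genes tested, log2(FPKM + 1) values of an siRNA2 library correlated at 0.85 to 0.88 with those of any A549_NC or siRNA1 library, against 0.96 to 0.97 among the latter 4 and 0.99 between both siRNA2 libraries. The summed FPKM of 13 histone mRNAs without poly(A) tails was 2005 and 2563 in A549_NC, 1244 and 1712 in siRNA1, and 42.5 and 35.7 in siRNA2. Library preparation is given as poly(A) isolation or rRNA removal with neither assigned to a library. The labels do not say whether the siRNA2 libraries were made apart from the others. In any comparison that uses them, siRNA2 cannot be told apart from library preparation or from any other difference in how or when they were made. Of 15 housekeeping genes, 10 were higher and 1 was lower after siRNA2, with a median log2 fold change of 0.75. The epithelial keratin mRNAs KRT8 and KRT18 were at 2712 FPKM or more in every library, and the leukocyte marker PTPRC was at 0.02 FPKM or less. Other markers of the same lists went the other way. The keratin KRT19 was at 0.76 to 5.38 FPKM, and EPCAM was at 2.59 and 2.70 FPKM in siRNA2. The leukocyte markers CD68 and CD14 were at 18.3 to 63.0 and 4.06 to 9.41 FPKM.

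**Figure D1:**
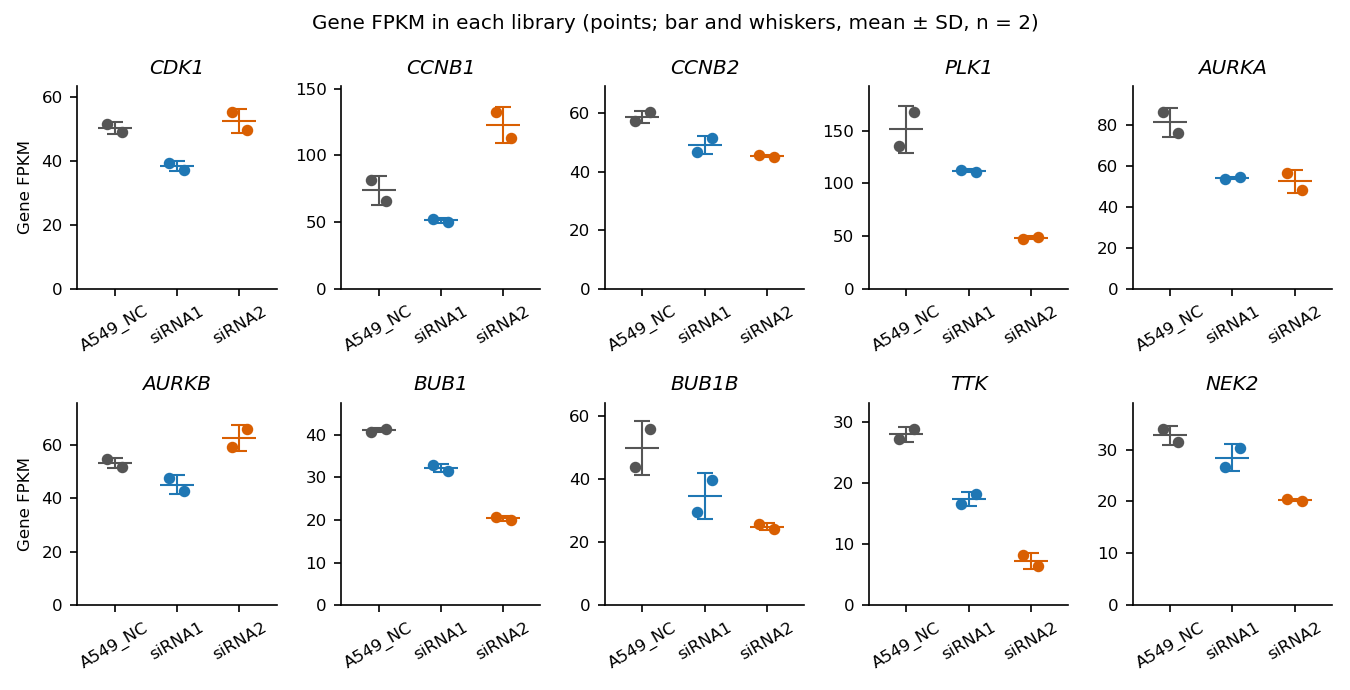
Gene FPKM (vertical axes, starting at 0) of each of the 10 genes in A549_NC, siRNA1 and siRNA2. Points are libraries, and bars with whiskers give the mean ± SD of 2 libraries. All 10 genes lay lower in both siRNA1 libraries than in both A549_NC libraries, while CCNB1 and AURKB lay higher in siRNA2.

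Levels are given as FPKM, which is per transcript length and per depth, summed over the transcripts of a gene. In A549_NC the order by mean was PLK1 (151 ± 22.3 FPKM, SD, n = 2), AURKA (81.2 ± 6.93), CCNB1 (73.8 ± 10.99), CCNB2 (58.8 ± 2.16), AURKB (53.3 ± 1.97), CDK1 (50.2 ± 1.88), BUB1B (50.01 ± 8.53), BUB1 (41.0 ± 0.46), NEK2 (32.7 ± 1.78) and TTK (28.1 ± 1.22). Among these neighbours, the libraries of AURKA and CCNB1 overlapped, as did those of CDK1 and BUB1B, and the other neighbours did not overlap. All 10 genes lay between the 76.8th and the 97.1st percentile of the genes above 0 FPKM in the A549_NC libraries. The order by mean in siRNA1 was the same. There, neighbours overlapped for CCNB1 and CCNB2, CCNB2 and AURKB, CDK1 and BUB1B, and BUB1B and BUB1. In siRNA2, CCNB1 (123 ± 13.5 FPKM) and AURKB (62.6 ± 4.76) led. By mean PLK1 (48.3 ± 1.48) lay behind CDK1 and AURKA, and TTK (7.29 ± 1.27) came last. The siRNA2 libraries of AURKA overlapped those of CDK1 and of PLK1, and those of BUB1 overlapped those of NEK2.

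After siRNA1, all 10 genes were lower than in A549_NC, and 0 of 10 passed an adjusted p of 0.05. Fold changes and adjusted p-values are from edgeR's quasi-likelihood test on gene counts over all 14535 genes tested, of which 0.0344% passed. The log2 fold changes ran from -0.62 (CCNB1) to -0.20 (NEK2), with a median of -0.49, beside a median of 0.00 over all genes tested. Reference genes also lay below 0 more often than above, with 13 of 15 housekeeping genes (median -0.21) and 7 of 10 epithelial and A549 markers (median -0.31), and 0 of either passed. A log2 fold change below 0 was found for 49.7% of all genes tested. Both siRNA1 libraries lay below both A549_NC libraries in gene FPKM for 10 of 10 genes, against 14.2% of all genes tested. Without adjustment, 9 of 10 (all but NEK2) were lower at p under 0.05, against 5.77% of all genes. In DESeq2, AURKA and CCNB1 passed (2 of 10, against 0.853% of all genes), and with the shared library number as a block in edgeR 8 of 10 passed (against 8.43%). The sign was negative for each gene in every alternative tried. In these bulk samples, fewer cells in G2 and M phase and less mRNA per cell cannot be told apart.

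After siRNA2, the 10 genes parted. TTK, BUB1, PLK1, AURKA and NEK2 fell (5 of 10, against 32.3% of genes tested), and CCNB1 and AURKB rose (2 of 10, against 31.8%). Of 15 housekeeping genes, 10 were higher and 1 was lower. Their median log2 fold change of 0.75 was above the values of CCNB1 (0.68) and AURKB (0.42). CDK1, CCNB2 and BUB1B did not pass. A log2 fold change below 0 was found for 7 of 10, against 51.1% of genes. Gene FPKM of both siRNA2 libraries lay below both A549_NC libraries for 7 of 10 (against 49.7%) and above for 2 of 10 (against 30.9%). In all, 7 of 10 passed an adjusted p of 0.05, beside 64.1% of the 14168 genes tested, so that the share of calls was near the background. The median log2 fold change was -0.31, beside -0.03 over all genes, and the values ran from -1.14 (TTK) to 0.68 (CCNB1). The median of all genes itself moved with the scaling, to -0.20 with total counts alone and to -0.22 on log2(FPKM + 1) in limma. AURKB then stood at 0.25 (adjusted p = 0.0546) and 0.23 (adjusted p = 0.127), so its call did not hold under these settings. Without siRNA2 replicate 4, the calls of AURKA, AURKB and NEK2 did not hold, and that of AURKB did not hold without siRNA2 replicate 3.

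The A549_NC libraries are shared by both comparisons, so siRNA2 was also set against siRNA1 directly in a fit of all 6 libraries. CCNB1, AURKB, CDK1 and BUB1B were higher in siRNA2 than in siRNA1 (4 of 10, against 31.1% of genes) and TTK was lower (1 of 10, against 33.4%), so that 5 of 10 passed beside 64.4% of 14440 genes. Of 15 housekeeping genes, 12 were higher and 1 was lower in siRNA2 than in siRNA1. Their median log2 difference of 0.93 was above the values of AURKB (0.85), CDK1 (0.79) and BUB1B (0.46) and below that of CCNB1 (1.31). On counts, AURKA, PLK1, CCNB2, BUB1 and NEK2 did not pass, with log2 differences from -0.25 to 0.18. The median difference over all genes was -0.06 and moved to -0.33 with total counts alone. With that scaling BUB1B did not pass (0.20, adjusted p = 0.184), and PLK1 (-0.36), BUB1 (-0.52) and NEK2 (-0.51) were lower in siRNA2 than in siRNA1 at an adjusted p under 0.05. On log2(FPKM + 1) in limma, BUB1B turned to -0.44 (adjusted p = 0.0750), and PLK1 (-1.20, adjusted p = 0.000381), BUB1 (-0.64, adjusted p = 0.00258) and NEK2 (-0.47, adjusted p = 0.0154) passed.

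**Figure D2:**
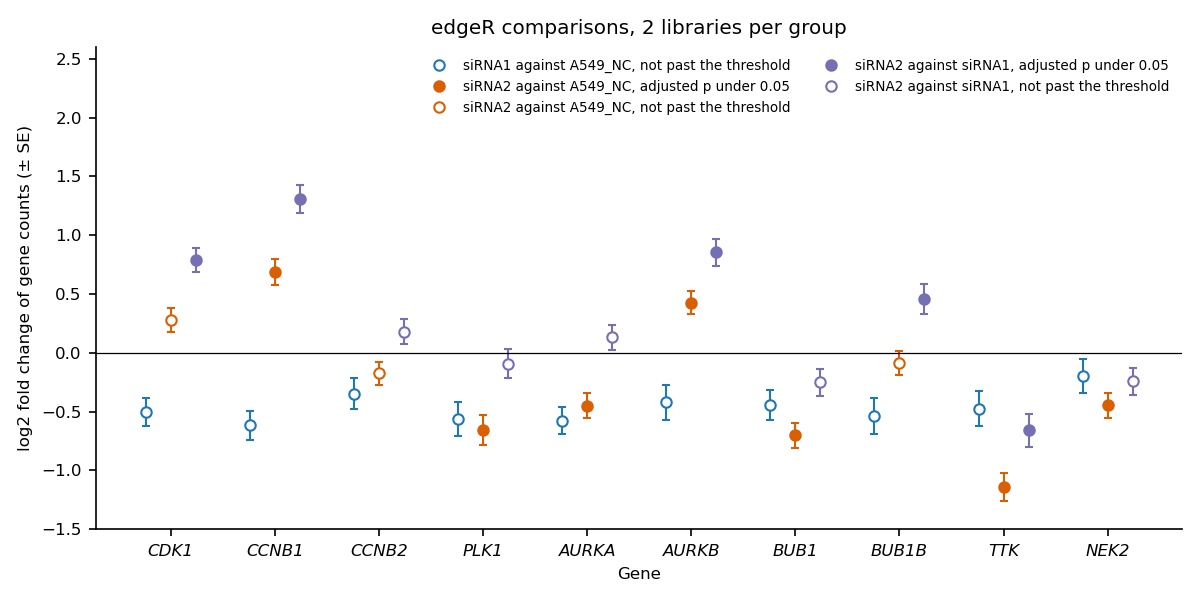
Log2 fold change of gene counts (vertical axis, ± SE) of each gene in the 3 comparisons, from edgeR. Filled points passed an adjusted p of 0.05 and open points did not: 0 for siRNA1, 7 for siRNA2 and 5 for siRNA2 against siRNA1. Of all genes tested, 0.0344%, 64.1% and 64.4% passed in the same order.

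CDK1 (chr10:62538089-62554610, plus strand, GRCh37 as for all gene positions) is the kinase that drives entry into mitosis. Its gene FPKM was 51.5 and 48.9 in A549_NC, 39.4 and 37.2 in siRNA1, and 55.1 and 49.8 in siRNA2. The siRNA1 libraries were the lowest, and the A549_NC and siRNA2 libraries overlapped. On counts the log2 fold change was -0.50 ± 0.12 (SE) after siRNA1 (adjusted p = 0.288) and 0.28 ± 0.11 after siRNA2 (adjusted p = 0.0504, edgeR). Between both siRNAs CDK1 differed by 0.79 ± 0.10 (adjusted p = 0.000227). The siRNA2 value was 0.29 with all 6 libraries in one fit (adjusted p = 0.0366), 0.11 with total counts alone (adjusted p = 0.417) and 0.06 on log2(FPKM + 1) in limma (adjusted p = 0.657).

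CCNB1 (chr5:68462962-68474072, plus strand), the gene of the main mitotic partner of CDK1, stood at 81.6 and 66.0 FPKM in A549_NC, 52.6 and 50.1 FPKM in siRNA1, and 132 and 113 FPKM in siRNA2. The groups did not overlap, with siRNA1 lowest and siRNA2 highest. Its log2 fold change on counts was -0.62 ± 0.13 after siRNA1 (adjusted p = 0.278) and 0.68 ± 0.11 after siRNA2 (adjusted p = 0.00119), or 1.61-fold higher. The difference of 1.31 ± 0.12 between siRNA2 and siRNA1 (adjusted p = 2.3e-05) was the largest among the 10 genes. CCNB2 (chr15:59397325-59417244, plus strand), the other B-type cyclin expressed in dividing somatic cells, did not follow it. CCNB2 stood at 57.3 and 60.4 FPKM in A549_NC, 47.0 and 51.5 FPKM in siRNA1, and 45.7 and 45.2 FPKM in siRNA2, so that all 4 siRNA libraries lay below both A549_NC libraries. Its log2 fold changes of -0.35 ± 0.13 after siRNA1 (adjusted p = 0.437) and -0.17 ± 0.10 after siRNA2 (adjusted p = 0.155) did not pass. The latter passed with total counts alone (-0.35, adjusted p = 0.0162) and on log2(FPKM + 1) in limma (-0.36, adjusted p = 0.0254).

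PLK1 (chr16:23688977-23701688, plus strand) stood at 136 and 167 FPKM in A549_NC, 113 and 111 FPKM in siRNA1, and 47.2 and 49.3 FPKM in siRNA2. The groups did not overlap, and siRNA2 was the lowest. On counts the difference was smaller, with a log2 fold change of -0.56 ± 0.14 after siRNA1 (adjusted p = 0.332) and -0.66 ± 0.12 after siRNA2 (adjusted p = 0.00257), or 1.58-fold lower. With the most abundant transcript alone, the siRNA2 value was -0.40 and did not pass (adjusted p = 0.0639). The counts of both siRNAs differed by -0.09 ± 0.12 (adjusted p = 0.537).

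AURKA (chr20:54944445-54967393, minus strand), the Aurora kinase of the spindle poles, stood at 86.1 and 76.3 FPKM in A549_NC, 53.7 and 54.4 FPKM in siRNA1, and 56.5 and 48.4 FPKM in siRNA2. Both siRNA groups lay below A549_NC and overlapped each other. Its log2 fold change was -0.58 ± 0.12 after siRNA1 (adjusted p = 0.277) and -0.45 ± 0.11 after siRNA2 (adjusted p = 0.00707). AURKB (chr17:8108051-8113918, minus strand), the kinase of the chromosomal passenger complex, stood at 54.7 and 51.9 FPKM in A549_NC, 47.6 and 42.6 FPKM in siRNA1, and 59.2 and 65.9 FPKM in siRNA2. Unlike AURKA, its groups kept the order siRNA1, A549_NC, siRNA2 without overlap. Its log2 fold change was -0.42 ± 0.145 after siRNA1 (adjusted p = 0.415) and 0.42 ± 0.10 after siRNA2 (adjusted p = 0.00614), and both siRNAs differed by 0.85 ± 0.11 (adjusted p = 0.000231). The processed pseudogene AURKAP1, which resembles AURKA, was listed at 0.07 to 1.65 FPKM.

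BUB1 (chr2:111395105-111435640, minus strand), the kinetochore kinase that recruits other checkpoint proteins, stood at 40.7 and 41.3 FPKM in A549_NC, 32.9 and 31.5 FPKM in siRNA1, and 20.79 and 19.9 FPKM in siRNA2. It decreased in that order with no overlap. The log2 fold change was -0.45 ± 0.13 after siRNA1 (adjusted p = 0.359) and -0.70 ± 0.11 after siRNA2 (adjusted p = 0.000937), and the latter did not pass with the most abundant transcript alone (-0.44, adjusted p = 0.167). BUB1B (chr15:40453224-40513324, plus strand), whose product is part of the complex that inhibits the anaphase-promoting complex, stood at 43.97 and 56.0 FPKM in A549_NC, 29.6 and 39.9 FPKM in siRNA1, and 25.7 and 24.4 FPKM in siRNA2. In FPKM the groups did not overlap. In TMM-scaled CPM, by contrast, the siRNA2 libraries (59.8 and 55.7) overlapped the A549_NC libraries (57.9 and 63.7), and the siRNA1 libraries (37.6 and 46.5) were the lowest. The log2 fold change on counts was -0.54 ± 0.155 after siRNA1 (adjusted p = 0.359) and -0.09 ± 0.10 after siRNA2 (adjusted p = 0.493), while limma on log2(FPKM + 1) gave -0.96 after siRNA2 (adjusted p = 0.00321).

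TTK (chr6:80713604-80752244, plus strand), the kinase at the head of the checkpoint, had the largest decrease of the 10 genes after siRNA2. It stood at 27.2 and 28.9 FPKM in A549_NC, 16.6 and 18.3 FPKM in siRNA1, and 8.19 and 6.39 FPKM in siRNA2, with no overlap between groups. The log2 fold change was -0.48 ± 0.15 after siRNA1 (adjusted p = 0.385) and -1.14 ± 0.12 after siRNA2 (adjusted p = 0.000147), or 2.21-fold lower. Both siRNAs differed by -0.66 ± 0.14 (adjusted p = 0.00327). NEK2 (chr1:211831999-211848972, minus strand), the centrosomal kinase, stood at 34.0 and 31.5 FPKM in A549_NC, 26.6 and 30.3 FPKM in siRNA1, and 20.4 and 20.1 FPKM in siRNA2. It had the smallest difference of the 10 genes after siRNA1 (-0.20 ± 0.14, adjusted p = 0.664) and fell by 0.45 ± 0.10 on the log2 scale after siRNA2 (adjusted p = 0.00642).

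FPKM and counts gave different sizes for siRNA2. The difference of mean log2 values for PLK1 was -1.64 in gene FPKM, -0.64 in counts and -0.59 in the FPKM of transcripts of at least 1000 bases. BUB1B gave -0.99, -0.07 and -0.01 in the same order, and TTK gave -1.95, -1.14 and -1.23. For CCNB2, which is nearly all 1 transcript, gene FPKM and FPKM of long transcripts both gave -0.37, and counts gave -0.16. FPKM of long transcripts also lay below counts for AURKB (0.21 and 0.44), CDK1 (0.08 and 0.29) and NEK2 (-0.63 and -0.44). What made the units differ was not tested. After siRNA1 the values in gene FPKM and in counts differed most for TTK (-0.69 and -0.48) and AURKB (-0.24 and -0.42). The comparison of long transcripts was added once these values were known.

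**Figure D3:**
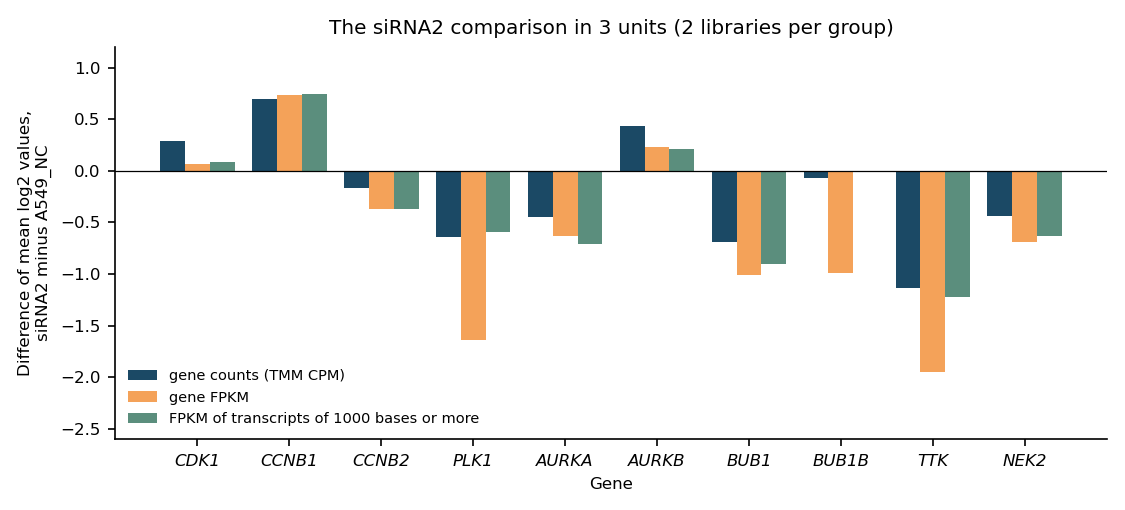
Difference of mean log2 values between siRNA2 and A549_NC (vertical axis, 2 libraries per group) of each gene, in TMM-scaled counts, in gene FPKM and in FPKM of transcripts of at least 1000 bases. PLK1 (-0.64 in counts, -1.64 in gene FPKM) and BUB1B (-0.07 and -0.99) differ most between units.

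The 10 genes had 95 transcripts in the tables, and 57 of them were tested for siRNA2 and 53 for siRNA1. After siRNA2, 12 transcripts of 8 genes passed an adjusted p of 0.05, 6 lower and 6 higher, beside 25.6% of all 56791 transcripts tested (12.7% lower and 12.9% higher). In DESeq2, 16 passed, beside 33.0% of all transcripts. After siRNA1, 0 passed in edgeR (0% of all transcripts) and 0 in DESeq2 (0.677% of all). Without adjustment 11 were under 0.05, beside 4.43% of all transcripts.

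Nearly all of the PLK1 FPKM lay in 2 transcripts in A549_NC and siRNA1 and in 1 in siRNA2. ENST00000300093 (2227 bases) is the full-length mRNA, and it stood at 64.2 and 77.1 FPKM in A549_NC, 52.6 and 48.1 FPKM in siRNA1, and 46.3 and 47.3 FPKM in siRNA2. ENST00000568568 (582 bases, chr16:23691053-23695269) has a first exon of its own, takes exons 2 to 5 of the full-length mRNA and is annotated without its 3′ end. It stood at 68.6 and 80.7 FPKM in A549_NC, 57.8 and 58.5 FPKM in siRNA1, and 0.00 and 0.37 FPKM in siRNA2. Its expected counts were 309.8 and 379.4 in A549_NC, 211.5 and 203.9 in siRNA1, and 0.0 and 2.4 in siRNA2 (adjusted p = 0.0108 for siRNA2, edgeR on transcripts). Thus about equal levels of both transcripts were listed in A549_NC and siRNA1, and almost none of the short one in siRNA2. The full-length transcript did not pass after siRNA2 (-0.31 ± 0.14, adjusted p = 0.171). The 2 transcripts share 487 bases of coding exon, and the estimation behind the expected counts has to divide reads from that stretch between them. The places where they part are shown as in GENCODE on GRCh37, with the first 15 bases of exon 2 (chr16:23691405-23691419) in capitals after the last 15 bases of each first exon.
PLK1 ENST00000300093: ctctgccgccggaggTCTCTCCTGGAGCTG
PLK1 ENST00000568568: agagaggacccccagTCTCTCCTGGAGCTG
In short transcripts (under 1000 bases) lay 52.4% and 53.4% of the gene FPKM of PLK1 in A549_NC, 52.7% and 56.1% in siRNA1, and 1.27% and 3.73% in siRNA2. Over all genes tested the median share was 18.8% and 19.4% in A549_NC, 19.4% and 18.9% in siRNA1, and 13.0% and 13.97% in siRNA2.

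Of the 2 main transcripts of CCNB1, 1 rose after siRNA2, as did a transcript of low level. ENST00000506572 (1331 bases) stood at 40.3 and 29.6 FPKM in A549_NC, 24.9 and 23.9 FPKM in siRNA1, and 95.7 and 84.1 FPKM in siRNA2, and rose by 1.66 ± 0.20 on the log2 scale after siRNA2 (adjusted p = 0.0134). ENST00000256442 (2169 bases), which carries the whole coding sequence and the 3′ UTR, stood at 33.5 and 31.2 FPKM in A549_NC, 21.0 and 23.3 FPKM in siRNA1, and 22.1 and 21.9 FPKM in siRNA2 (-0.27 ± 0.12 after siRNA2, adjusted p = 0.160). The short ENST00000507798 (767 bases), which reaches into the last exon and ends at chr5:68473527, stood at 0.39 and 0.57 FPKM in A549_NC, 0.23 and 0.57 FPKM in siRNA1, and 3.26 and 4.14 FPKM in siRNA2, and rose by 3.20 ± 0.62 on the log2 scale after siRNA2 (adjusted p = 0.0327). Most of the higher gene FPKM after siRNA2 lay in ENST00000506572. In GENCODE, ENST00000506572 is annotated without its 3′ end and runs 9 bases past the end of exon 8. Those 9 bases (chr5:68473177-68473185) and the first 15 bases of the last exon of ENST00000256442 (chr5:68473351-68473365) are in capitals after the 15 bases that both transcripts share.
CCNB1 ENST00000256442: cttacaaagcacatgACTGTCAAGAACAAG
CCNB1 ENST00000506572: cttacaaagcacatgGTGAGTCAA
The shorter transcript took 44.8% to 49.4% of the gene FPKM in A549_NC and siRNA1 and 72.3% and 74.3% in siRNA2. Both transcripts hold the same first 8 exons, so that they differ mainly in the presence of the last exon.

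For BUB1B the short transcripts differed after siRNA2 and the full-length mRNA did not pass. ENST00000287598 (3725 bases) stood at 13.5 and 13.5 FPKM in A549_NC, 9.84 and 10.9 FPKM in siRNA1, and 13.8 and 13.0 FPKM in siRNA2 (0.27 ± 0.12 after siRNA2, adjusted p = 0.175). ENST00000559733 (786 bases, annotated as a target of nonsense-mediated decay) stood at 12.2 and 17.8 FPKM in A549_NC, 5.08 and 10.9 FPKM in siRNA1, and was listed at 0 in both siRNA2 libraries (adjusted p = 0.0144 after siRNA2). The reverse was found for ENST00000559414 (526 bases, from the first 5 exons), which was listed at 0 in all 4 A549_NC and siRNA1 libraries and at 9.13 and 9.14 FPKM in siRNA2, with 55.8 and 48.7 expected counts (adjusted p = 0.0209). ENST00000559461 (477 bases, a retained intron) fell from 11.8 and 22.9 FPKM in A549_NC to 1.67 and 2.25 FPKM in siRNA2 (adjusted p = 0.0448). Short transcripts made up 69.3% and 75.9% of the gene FPKM of BUB1B in A549_NC and 46.2% and 46.8% in siRNA2.

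The other called transcripts belonged to AURKA, AURKB, BUB1, CDK1 and TTK. For TTK the full-length ENST00000369798 (3010 bases) fell by 0.91 ± 0.17 on the log2 scale after siRNA2 (adjusted p = 0.0316), from 14.8 and 14.9 FPKM to 7.06 and 5.87 FPKM. Its decrease thus did not rest on short transcripts alone. AURKB ENST00000585124 (1227 bases) stood at 19.0 and 14.1 FPKM in A549_NC, 10.1 and 14.2 FPKM in siRNA1, and 34.9 and 33.6 FPKM in siRNA2, a log2 fold change of 1.35 ± 0.21 after siRNA2 (adjusted p = 0.0205). It took 34.8% and 27.1% of the gene FPKM in A549_NC and 59.0% and 50.9% in siRNA2. Other AURKB transcripts went both ways after siRNA2 and did not pass, among them the retained intron ENST00000584561 (-1.33 ± 0.36, adjusted p = 0.0632). AURKA ENST00000395915 (2114 bases), its most abundant transcript, fell by 0.92 ± 0.13 after siRNA2 (adjusted p = 0.0170). ENST00000441357 (991 bases) of AURKA was called higher after siRNA2 (adjusted p = 0.0346), with expected counts of 0 and 0 in A549_NC, 0 and 7.2 in siRNA1, and 21.6 and 28.1 in siRNA2. CDK1 ENST00000448257 (1948 bases) rose by 2.13 ± 0.49 after siRNA2 (adjusted p = 0.0467), from 0.47 and 0.39 FPKM in A549_NC to 1.52 and 1.68 FPKM. In BUB1, ENST00000535254 (3532 bases) fell by 1.71 ± 0.25 (adjusted p = 0.0193) while the main ENST00000302759 (3507 bases) stood at -0.35 ± 0.25 (adjusted p = 0.347). For CCNB2, ENST00000288207 (1556 bases) made up 98.1% to 99.6% of the gene FPKM in every library, and no transcript of CCNB2 or NEK2 was called.

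**Figure D4:**
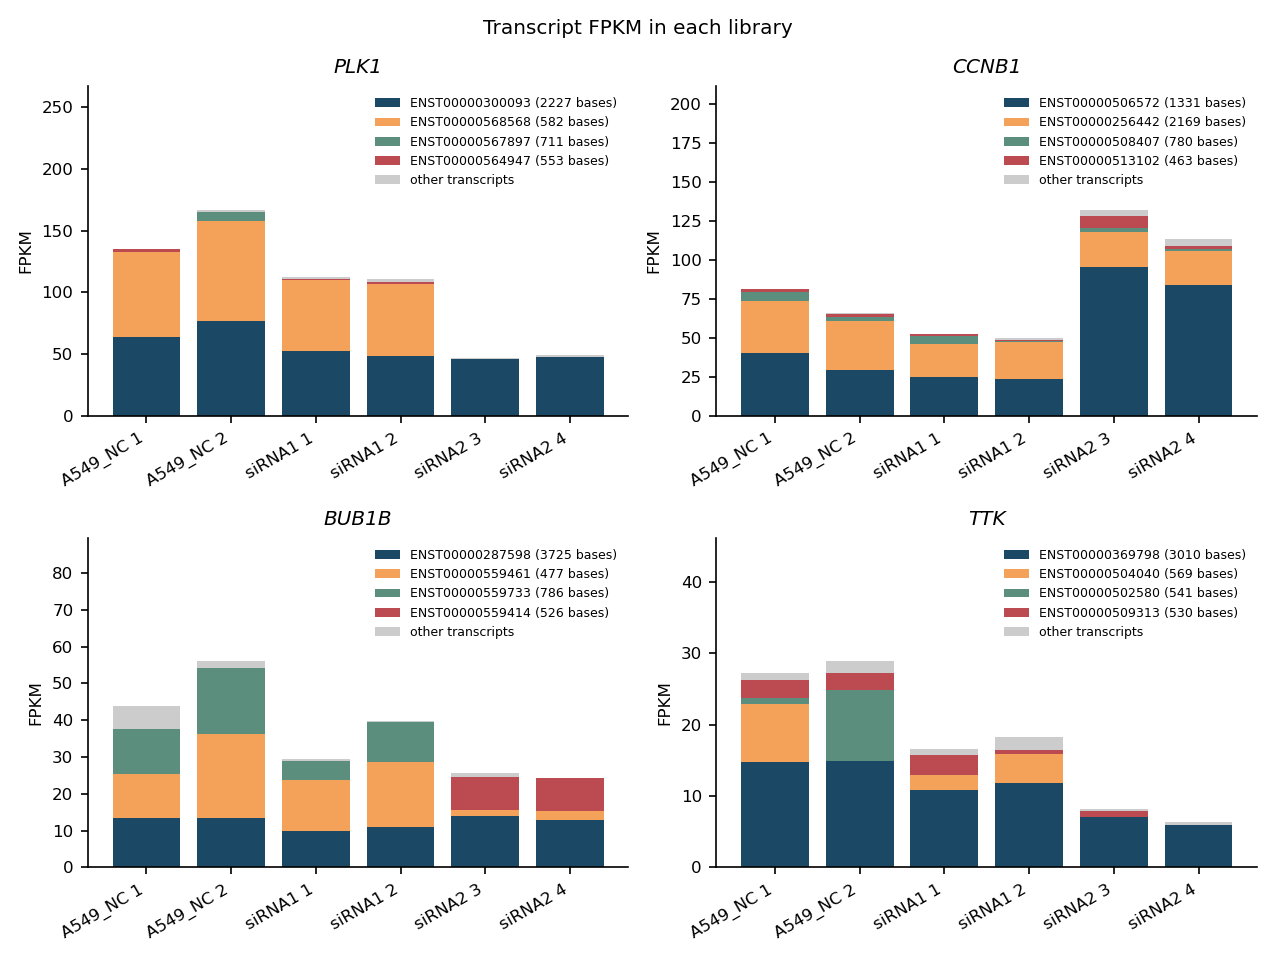
FPKM of the transcripts of PLK1, CCNB1, BUB1B and TTK in each library (stacked bars, vertical axes starting at 0), with the 4 transcripts of highest mean in colour and the rest in grey. In both siRNA2 libraries, ENST00000568568 of PLK1 (0.00 and 0.37 FPKM) is all but missing and ENST00000506572 of CCNB1 (95.7 and 84.1 FPKM) is higher.

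The genes around these kinases and cyclins were followed with 5 lists of 99 distinct genes. After siRNA1, 0 of the 95 tested passed in edgeR, 33 were under 0.05 without adjustment (against 10.4% of all genes tested) and 3 passed in DESeq2 (against 0.853%). A log2 fold change below 0 was found for 75 of 95 (against 49.7%), with a median of -0.23. After siRNA2, 32 of the 94 tested were higher and 31 were lower, and their median was -0.06. Both shares were near those of all genes tested (31.8% higher and 32.3% lower).

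Among other members of the same families, 17 were tested for siRNA1 and 16 for siRNA2, and their median log2 fold change was -0.02 after siRNA1. CCNA2, the cyclin A that precedes cyclin B, stood at 33.0 and 34.3 FPKM in A549_NC, 19.7 and 24.6 FPKM in siRNA1, and 19.5 and 18.1 FPKM in siRNA2, with both siRNA groups below A549_NC. Its log2 fold change was -0.69 ± 0.16 after siRNA1 (adjusted p = 0.282) and -0.65 ± 0.10 after siRNA2 (adjusted p = 0.00101). The other 3 largest values after siRNA1 were 0.84 for NEK8, -0.50 for CDK2 and -0.47 for CCNA1, none of which passed. After siRNA2, 2 of 16 were higher and 5 were lower, against 31.8% and 32.3% of all genes tested. Among them were NEK8 (1.62), NEK3 (-1.12) and NEK1 (-0.99).

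Of the 25 genes of mitotic entry control, 20 were below 0 after siRNA1 (against 49.7% of all genes tested) and none passed. The 4 largest values were -0.76 for CDK7, the kinase that activates CDK1, -0.75 for CDC25C, the phosphatase that removes its inhibitory phosphates, -0.57 for FOXM1, a transcription factor of G2 and M phase genes, and -0.56 for PKMYT1, which inhibits CDK1. For CDK7 counts and FPKM went opposite ways, since its gene FPKM was 16.2 and 18.7 in A549_NC and 19.2 and 20.4 in siRNA1. After siRNA2, 7 were higher and 10 were lower, against 31.8% and 32.3% of all genes tested. On counts PKMYT1 rose most (2.92 ± 0.13, adjusted p = 5.94e-06). CKS2, a small subunit of CDK complexes (2.38), CDC25A (1.67) and the phosphatase subunit PPP1CA (1.39) followed. In gene FPKM, PKMYT1 rose from 10.3 and 9.57 in A549_NC to 26.1 and 29.8, a smaller rise than on counts. It was also smaller than that of CKS2, from 32.6 and 29.3 FPKM in A549_NC to 152 and 120 FPKM.

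The 11 partners of Aurora kinases and PLK1 were all below 0 after siRNA1 (against 49.7% of all genes tested), with a median of -0.31 and 0 passing. TPX2, the activator of AURKA, stood at 83.8 and 92.1 FPKM in A549_NC, 63.9 and 67.3 FPKM in siRNA1, and 41.1 and 34.8 FPKM in siRNA2. Its log2 fold change was -0.51 ± 0.14 after siRNA1 (adjusted p = 0.338) and -1.03 ± 0.12 after siRNA2 (adjusted p = 0.000226). The partners of AURKB in the chromosomal passenger complex went other ways after siRNA2. BIRC5 (survivin) rose by 1.07 ± 0.12 (adjusted p = 0.000183), CDCA8 (borealin) rose by 0.46 ± 0.11 (adjusted p = 0.00787), and INCENP stood at -0.24 ± 0.11 (adjusted p = 0.0838). After siRNA1 the same genes stood at -0.18 for BIRC5, -0.35 for CDCA8 and -0.48 for INCENP, and TACC3 at -0.37. CEP192 (-1.19) and CKAP5 (-1.10), centrosome and microtubule proteins, also fell after siRNA2. In all, 3 of 11 were higher and 4 lower after siRNA2, against 31.8% and 32.3% of all genes tested.

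Of 20 spindle checkpoint and kinetochore genes, 17 were below 0 after siRNA1 (against 49.7% of all genes tested) and none passed. The 4 largest values were 0.71 for ZW10, -0.60 for SPC25, -0.60 for NUF2 and -0.52 for PMF1. After siRNA2, 9 were higher and 5 were lower, against 31.8% and 32.3% of all genes tested. CASC5, the kinetochore scaffold to which BUB1 and BUB1B are recruited, had the largest decrease on counts (-2.28 ± 0.11, adjusted p = 6.38e-06). In gene FPKM, CASC5 went from 31.1 and 34.2 in A549_NC to 2.81 and 3.31. It had 25.5 and 39.7 FPKM in siRNA1 (-0.18, adjusted p = 0.618), which overlapped A549_NC. ZWINT (1.48), DSN1 (1.30) and ZW10 (1.25) rose most. MAD2L1, which forms the checkpoint complex with BUB1B, rose by 0.54 ± 0.12 after siRNA2 (adjusted p = 0.00573), while BUB3, the partner of BUB1 and BUB1B, stood at 0.22 ± 0.11 (adjusted p = 0.115). After siRNA1, MAD2L1 stood at -0.36 and BUB3 at -0.13.

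Of 23 genes of the anaphase-promoting complex and anaphase onset, 19 were below 0 after siRNA1 (against 49.7% of all genes tested) and none passed. CDC20, the activator of the complex that degrades cyclin B, had the largest value (-0.69 ± 0.14, adjusted p = 0.277), followed by ANAPC2 (-0.55), PTTG1 (securin, -0.52) and UBE2C (-0.48). CDC20 stood at 41.6 and 43.2 FPKM in A549_NC, 27.7 and 28.6 FPKM in siRNA1, and 64.3 and 60.1 FPKM in siRNA2, and rose by 0.74 ± 0.10 after siRNA2 (adjusted p = 0.000491). CDC20 and CCNB1 thus shared the order siRNA1, A549_NC, siRNA2. This order was not particular to them, since UBE2C and the housekeeping genes PPIA and HPRT1 also had it without overlap. After siRNA2, 11 of 23 were higher and 7 were lower, against 31.8% and 32.3% of all genes tested. The small subunits ANAPC11 (2.77) and ANAPC15 (2.21) were highest and PTTG1 (-2.21) and the large subunit CDC27 (-1.36) lowest. Securin mRNA was at 794 and 958 FPKM in A549_NC, 590.4 and 671 FPKM in siRNA1, and 103 and 83.4 FPKM in siRNA2.

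**Figure D5:**
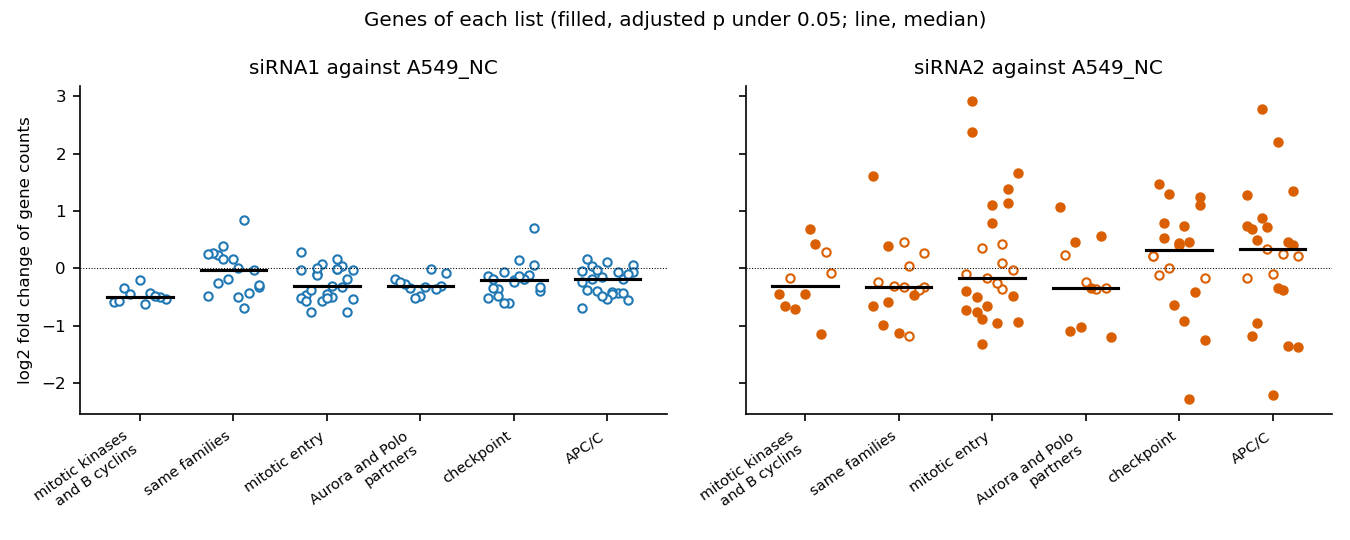
Log2 fold change of gene counts (vertical axis) of each tested gene of the 10 mitotic kinases and B cyclins and of the 5 lists, for siRNA1 (left) and siRNA2 (right). Filled points passed an adjusted p of 0.05 and lines are medians: the 10 genes have a median of -0.49 after siRNA1, and both directions occur in each list after siRNA2.

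General markers of proliferation also parted after siRNA2. MKI67 stood at -0.39, TOP2A at -0.56 and PCNA at -0.31 after siRNA1, and none passed. After siRNA2, MKI67 (-1.27 ± 0.11, adjusted p = 6.84e-05) and TOP2A (-0.73 ± 0.10, adjusted p = 0.000397) fell and PCNA rose (0.95 ± 0.16, adjusted p = 0.00157).

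The profile of the 10 genes over the 6 libraries, taken as the mean of their standardized log2(FPKM + 1), was 0.78 and 0.75 in A549_NC, -0.37 and -0.26 in siRNA1, and -0.36 and -0.54 in siRNA2. Among 10173 other genes with a mean of at least 5 FPKM, profiles among the most like it were those of MORF4L1 (Pearson's r = 0.99), KNSTRN (0.98), UBE2D3 (0.97) and the unnamed gene ENSG00000234237 (0.97). Each r is over 6 libraries that fall into 3 groups of shared treatment and depth, and is given as a description. The profile joins genes that went both ways after siRNA2, with CCNB1 and AURKB higher. It rests on gene FPKM, in which siRNA2 decreases were larger than on counts for PLK1 (-1.64 and -0.64), BUB1B (-0.99 and -0.07) and TTK (-1.95 and -1.14). KNSTRN, a gene of the mitotic spindle, stood at 20.7 and 20.3 FPKM in A549_NC, 15.4 and 15.3 FPKM in siRNA1, and 16.3 and 14.4 FPKM in siRNA2.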

How the data were processed

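The authors deposited 2 tables of 180253 Ensembl transcripts, one for A549_NC and siRNA1 and one for A549_NC and siRNA2, with identical A549_NC values. The authors gave an expected count per transcript and library, which is not normalized, and an FPKM value, normalized for transcript length and depth. The submitters' processing notes name hg19, Trimmomatic 0.30, HISAT2 2.0.1, HTSeq 0.6.1 and DESeq. The tool that estimated the expected counts is not given in the sources used here. Groups were taken from the labels, which number only siRNA2. The name siRNA1 for the other siRNA was inferred from that.

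Transcripts were summed to 34957 genes. The 16723 transcripts without a gene identifier, with 3.03% to 3.62% of the counts, were left out. Gene sums of the expected counts, rounded to whole numbers, went into edgeR 4.0.16 (quasi-likelihood test, TMM scaling) in R 4.3.3, in a fit of 4 libraries for each siRNA and of 6 libraries for siRNA2 against siRNA1, for features with a mean of at least 0.5 FPKM. Calls were made at a Benjamini-Hochberg adjusted p of 0.05. Each SE is the log2 fold change divided by the root of F. Alternatives were other scalings and filters, DESeq2 1.42.0, limma 3.58.1 on log2(FPKM + 1) and log2(FPKM + 0.1), all 6 libraries in one fit, the most abundant transcript, a replicate block, leaving out each library and, added after seeing the data, transcripts of at least 1000 bases. The fits were checked on simulated counts. With 2 libraries per group precision is low.

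The genes and lists were chosen with earlier results of these data known. All 10 genes are named, with TPX2, INCENP, BIRC5, CDCA8, BUB3, MAD2L1, CDC20 and CCNA2. From each list the text names the genes called for both siRNAs and, for each siRNA, the 4 with the largest log2 fold change among those called, or the 4 largest where none was called. The genes most like the profile are taken from the 5 with the highest Pearson correlation. Some genes that these rules name are not reported here. Protein sequences were not used here. PLANE was not analysed here.

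Marker lists of other cell types were also read. Of 8 leukocyte markers, 2 or 3 were at 1 FPKM or more in each library, with CD68 highest (18.3 to 63.0 FPKM), and CD68 (1.06) and CD14 (0.74) were higher after siRNA2 on the log2 scale. Of 7 fibroblast and endothelial markers, 1 to 3 were at 1 FPKM or more, and COL3A1 (-3.19), LUM (-2.05) and COL1A1 (-0.82) were lower after siRNA2. Of 10 epithelial and A549 markers, 7 were higher and 2 were lower after siRNA2, led by AKR1B10 (1.81), EPCAM (-1.71), CDH1 (-1.37) and KRT8 (1.23). Among housekeeping genes, RPLP0 (1.31) and GUSB (1.08) were higher after siRNA2. Of the 13 histone genes, 12 were lower after siRNA2.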

Additional observations from a re-analysis of the deposited data

Results flagged for a closer look

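The 5 results below are from the direct comparison of siRNA2 with siRNA1 libraries in edgeR, in which 64.4% of all 14440 genes tested passed. In it 12 of 15 housekeeping genes were higher and 1 was lower, with a median of 0.93, above the values of AURKB, CDK1 and BUB1B. CCNB1 differed by 1.31 on the log2 scale (adjusted p = 2.3e-05), with both siRNA1 libraries (52.6 and 50.1 FPKM) below and both siRNA2 libraries (132 and 113 FPKM) above A549_NC. AURKB differed by 0.85 (adjusted p = 0.000231) in the same manner. CDK1 differed by 0.79 (adjusted p = 0.000227), with both siRNA1 libraries below the other 4 libraries. BUB1B differed by 0.46 (adjusted p = 0.0124) on counts, while its gene FPKM was lower in both siRNA2 libraries than in both siRNA1 libraries. TTK differed by -0.66 (adjusted p = 0.00327), being below A549_NC after both siRNAs and lowest after siRNA2. The siRNA2 libraries also differed from the other 4 in histone mRNAs without a poly(A) tail (35.7 and 42.5 summed FPKM, against 1244 to 2563). In these differences siRNA2 cannot be told apart from library preparation or from any other difference in how or when these libraries were made.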

How the results depend on the processing

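After siRNA1, members past the threshold numbered 0 in the main test, 2 in DESeq2 and 8 with the replicate block, and pathway genes numbered 0, 3 and 24. Of all 14535 genes tested, 0.0344%, 0.853% and 8.43% passed in the same settings. The block used the number 1 or 2 that A549_NC and siRNA1 share. Differences between the libraries numbered 1 and 2 correlated at 0.47 over genes between both groups, but the labels do not say what the number marks, and with 2 pairs this is a hint from the data only. For siRNA2 no paired analysis was possible because its libraries share no number with A549_NC. The median of the 10 genes after siRNA1 was -0.49 and moved to -0.40 with total counts alone, -0.40 on log2(FPKM + 1) and -0.41 on log2(FPKM + 0.1), where the median of all genes moved to 0.09, 0.08 and 0.08. With 1 library left out it ranged from -0.53 to -0.43. After siRNA2 it was -0.31 and moved to -0.48, -0.64 and -0.66 in the same settings, and ranged from -0.34 to -0.25 with 1 library left out. Without a library, 4 to 9 of the 10 genes passed after siRNA2, the lone library being assumed to vary like the others. Without siRNA2 replicate 4, AURKA, AURKB and NEK2 did not pass. Without siRNA2 replicate 3, AURKB did not pass. In the siRNA2 comparison BUB1B turned to 0.18 with the most abundant transcript and 0.19 with transcripts of at least 1000 bases. In siRNA2 against siRNA1, AURKA turned to -0.13 with total counts, -0.05 (-0.0465 and -0.0474) in the limma fits and -0.15 with the most abundant transcript, and CCNB2 turned to -0.0859, -0.11 (-0.112) and -0.11 (-0.114) in the first 3 of these. BUB1B turned to -0.44 and -0.45 in the limma fits, PLK1 to 0.17 with the most abundant transcript and 0.18 with long transcripts, and BUB1 to 0.051 with the most abundant transcript. AURKA, CCNB2, PLK1 and BUB1 had not passed in this comparison. BUB1B did not pass in this comparison without siRNA1 replicate 1 (0.31, adjusted p = 0.0828) or without siRNA2 replicate 3 (0.41, adjusted p = 0.0914). The cause of these changes was not tested. The counts of calls in the other settings stayed within 1.5 times the main count.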
